A study of Mus musculus with 6 samples.

Results

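The integrated stress response genes described here are *Atf4*, *Atf5*, *Atf3*, *Ddit3*, *Chac1*, *Trib3*, *Asns*, *Ddit4*, *Nupr1* and *Psat1*. They were taken by symbol from the table of expression values, as genes of the ATF4 pathway, which defects of mitochondria can switch on. The 10 symbols stood in 11 of the 55364 entries of the table, because *Ddit3* was listed under 2 identifiers. All embryos were BDF1 x BDF1, fertilized in vitro, injected as zygotes and cultured in KSOM medium to the morula stage. The control KD group had received a control siRNA and the *Yy1* KD group an siRNA against *Yy1*, which encodes a zinc finger transcription factor. Each group had 3 libraries of total RNA, each made from a pool of 10 morulae, so that differences between single embryos and between cells were not measured. *Yy1* itself was at 96.0, 100.2 and 89.8 TPM in control KD and at 8.73, 8.90 and 8.32 TPM in *Yy1* KD libraries, which left 9.07% of the control mean.

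In the integrated stress response, kinases that sense heme, double-stranded RNA, unfolded proteins or a lack of amino acids phosphorylate the translation factor eIF2. General translation then slows, while the mRNA of *Atf4* is translated more through short reading frames in its leader. ATF4 protein activates genes for amino acid synthesis and transport, feedback inhibitors and, when stress lasts, genes of cell death, and faults of mitochondria can start the same response. RNA levels report the transcripts of this pathway and do not measure eIF2 phosphorylation or ATF4 protein.

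Expression was given as TPM, read pairs per exon length scaled to the same sum in every library, so that levels of different genes can be compared. Between 11793509 and 24417789 read pairs per library lay on genes. All 12 markers of the morula stage were tested, and *Pou5f1* had means of 706 ± 32.4 TPM in control KD and, in *Yy1* KD, 678 ± 31.6 TPM (SD, n = 3 each). Of these markers 9 had a lower mean in *Yy1* KD, against 9167 of 17353 over all genes tested. In the limma test described below 3, all lower, had an unadjusted p under 0.05, against 23.8% of all genes tested. Of the 12 markers 1 was called lower, against 4.20% of all genes tested. *Tfap2c*, a transcription factor of the trophoblast lineage, was called lower at 126 ± 9.14 TPM against 183 ± 7.24 TPM in control KD (SD, n = 3 each), and its log2 fold change was -0.54 with an adjusted p of 0.0174 by limma. The part of these markers in the results below was not tested. Markers of cumulus cells summed to between 0.186 and 2.09 TPM per library and those of sperm to between 0 and 2.26 TPM, and oocyte markers, which persist as maternal RNA, to between 56.2 and 78.8 TPM. Control KD replicate 3 stood apart from the other libraries in genes of the endoplasmic reticulum, described below, and the members' values without it are given.

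None of the 10 genes was called as higher or lower in *Yy1* KD morulae. The 9 genes that reached 1 TPM in at least 3 libraries were tested with limma on log2(TPM + 1), with Benjamini-Hochberg adjusted p-values over all 17353 genes tested, and 0 of the 9 had an adjusted p under 0.05. Over all genes tested 6.11% were called, 1.92% as higher and 4.20% as lower in *Yy1* KD. With an unadjusted p under 0.05, *Ddit4* and *Psat1* passed, against 23.8% of all genes tested, and limma-voom on the read pairs recovered from TPM likewise called 0 members and gave 2 with an unadjusted p under 0.05. The 3 control KD values and the 3 *Yy1* KD values did not overlap for *Psat1*, which was higher, and for *Atf5*, which was lower. Over all genes tested the groups did not overlap for 30.1%. Of the 9 genes, 5 were higher and 4 lower in *Yy1* KD, with a median log2 fold change of 0.15 against -0.02 over all genes tested. *Chac1*, one of the higher genes, passed the filter through its *Yy1* KD values of 1.97, 1.22 and 1.60 TPM. In control KD it was at 0.118, 1.72 and 0.573 TPM. Without a filter on low values, 5 members were higher and 5 lower, with a median of 0.06 against 0.006 over all genes. Without control KD replicate 3, 0 of the 9 were called, 5 were higher and 4 lower, and the median was 0.01. It was 0.03 without *Yy1* KD replicate 3. The genes with an unadjusted p under 0.05 were different ones without control KD replicate 3. There *Atf4* (log2 fold change -0.24, limma adjusted p = 0.193) and *Atf5* (-0.50, limma adjusted p = 0.232), both lower, passed, and *Ddit4* (0.31, limma adjusted p = 0.396) and *Psat1* (0.16, limma adjusted p = 0.355) did not. The log2 fold changes of the other members in that fit were 0.44 for *Asns*, 0.57 for *Chac1*, 0.01 for *Ddit3*, -0.24 for *Nupr1* and -0.49 for *Trib3*.

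The levels spanned more than the difference between the groups. In control KD morulae *Psat1* was highest, followed by *Atf4* and *Ddit4*, and the ranges of these 3 genes overlapped neither each other nor the genes below. *Asns*, *Trib3*, *Ddit3*, *Atf5* and *Nupr1* came next, and each overlapped its neighbour in this order. *Chac1* and *Atf3* came last, at or below 1.72 TPM in every control KD library. *Psat1* and *Atf4* lay above 96.9% and 93.3% of the genes tested, *Ddit3* above 50.2%, and *Chac1* above 2.24%.

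**Figure D1:**
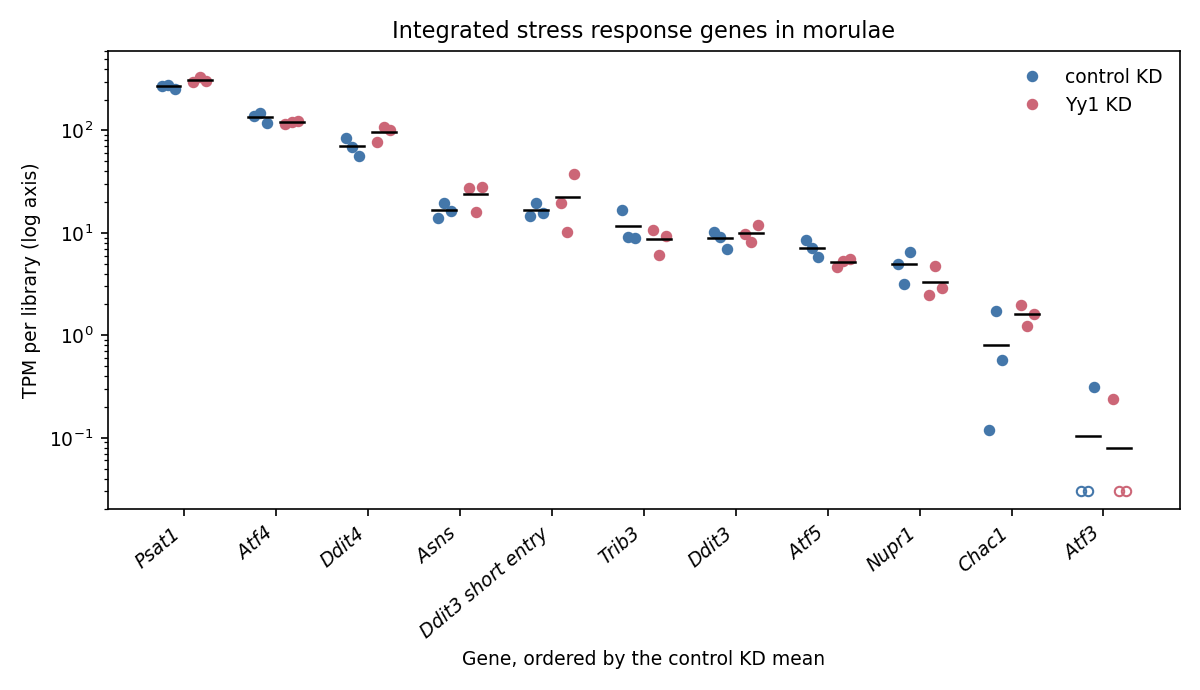
TPM of the integrated stress response genes on a log axis, ordered by the control KD mean. Each filled point is a library (3 control KD in blue, 3 Yy1 KD in red), black lines are means, and open circles at the lower edge are libraries listed at 0; Psat1 and Atf5 are the genes whose groups do not overlap.

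Promoter sequences are shown first, because a core of the ATF4 element is a feature that several of the members share. The members were chosen as genes of the ATF4 pathway, so this feature is not independent of the choice. ATF4 binds with C/EBP proteins to a composite element of which TGATGNAA is the core, read TTNCATCA on the other strand. RefSeq promoters of 300 bases (GRCm38.p6, from 250 bases before the start to 50 after it) were found for all 10 genes, 12 promoters in all. The core was present on either strand in 5 of these 12 promoters, belonging to 5 genes, against 3.97% of all 32851 promoters. Its first base lay 110 bases upstream of the start in *Atf3* and in *Nupr1*, 193 upstream in *Chac1*, 23 upstream in *Asns* and 14 downstream in *Trib3*. The windows of 30 bases were chr1:191183425-191183454 for *Atf3*, chr7:126625562-126625591 for *Nupr1*, chr2:119351038-119351067 for *Chac1*, chr6:7693214-7693243 for *Asns* and chr2:152344028-152344057 for *Trib3*. All lie on the minus strand apart from *Chac1*, are written in the direction of transcription, and carry the core in capitals.
Atf3: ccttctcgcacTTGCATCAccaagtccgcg
Nupr1: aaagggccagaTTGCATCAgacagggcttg
Chac1: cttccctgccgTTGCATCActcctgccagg
Trib3: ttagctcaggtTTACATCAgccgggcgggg
Asns: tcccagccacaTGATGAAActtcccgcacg

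*Atf3*, *Nupr1* and *Chac1* held the form TGATGCAA, which 0.895% of all promoters had. In the list of other ATF4 targets described below, 12 of 39 promoters held TGATGNAA. The YY1 core GCCATNTT was found on neither strand of the 12 promoters, against 6.05% of all promoters. The cyclic AMP response element TGACGTCA, present in 1.79% of all promoters, and the endoplasmic reticulum stress element, present in 0.119%, were not found in these windows either, while 8 of the 20 genes with a promoter in the list for the endoplasmic reticulum held the latter. Of the 5 genes with the ATF4 core in the window, *Asns* and *Chac1* had a higher mean in *Yy1* KD and *Nupr1* and *Trib3* a lower one, none of them called, while *Atf3* was too low to be tested. Such matches of letters are descriptions of the windows and no measure of binding.

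Among the transcription factors, *Atf4* (ENSMUSG00000042406.8, chromosome 15, 80255184 to 80257541 on the plus strand of GRCm38, the assembly of mm10) encodes the central activator. Its level was 138, 147 and 119 TPM in control KD against 117, 120 and 124 TPM in *Yy1* KD libraries. The 3 *Yy1* KD values lay close together, below 2 of the 3 control KD values, and overlapped the lowest control. The log2 fold change was -0.16 (95% interval -0.38 to 0.06, adjusted p = 0.356). It was -0.09 without control KD replicate 2 and -0.24 without control KD replicate 3. Between 1445 and 3583 read pairs per library stood behind these values. No other annotated gene overlaps its exons.

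*Atf5*, a relative of *Atf4* that is under similar translational control and acts in the mitochondrial stress response, lies on the minus strand of chromosome 7 (ENSMUSG00000038539.15, 44812256 to 44816658). Its level was 8.47, 7.06 and 5.77 TPM in control KD against 4.62, 5.32 and 5.57 TPM in *Yy1* KD libraries. Every *Yy1* KD library was below every control KD library, and the exact permutation test gave the smallest p that 3 against 3 libraries allow, 0.1. The log2 fold change was -0.38 (95% interval -0.81 to 0.05, adjusted p = 0.260). Of its 1993 exonic bases, 82 are shared with *Il4i1* and *Nup62*, whose read pairs were divided without regard to strand.

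*Ddit3* encodes CHOP, a factor linked to cell death under lasting stress. The entry that covers the whole gene (ENSMUSG00000025408.15, chromosome 10, 127290774 to 127296288, plus strand) was at 10.3, 9.22 and 6.95 TPM in control KD against 9.66, 8.21 and 11.9 TPM in *Yy1* KD libraries. The groups overlapped, and the log2 fold change was 0.15 (95% interval -0.31 to 0.62, adjusted p = 0.684). It ranged from 0.01 to 0.27 when 1 library was left out. The other entry is a separately annotated reading frame of 105 bases in the leader of the same transcript (ENSMUSG00000116429.1, 127290829 to 127293753), all of which lies within exons of the longer entry. A pair on it counted for both entries in part, and between 5.83 and 21 pairs per library were assigned to it. It was at 14.7, 19.4 and 15.7 TPM in control KD against 19.7, 10.1 and 37.5 TPM in *Yy1* KD libraries, a log2 fold change of 0.24 (95% interval -0.75 to 1.23) that was -0.21 without *Yy1* KD replicate 3. With the pairs of both entries joined, the values were 11.2, 10.4 and 7.91 TPM against 10.9, 8.83 and 14.2 TPM, and the log2 fold change was 0.17.

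*Atf3* (ENSMUSG00000026628.13, chromosome 1, 191170296 to 191218039, minus strand), an early stress-induced factor downstream of ATF4, was barely detected. It was listed at 0 in 2 control KD and 2 *Yy1* KD libraries. Control KD replicate 3 had 5 read pairs, or 0.311 TPM (exact 95% Poisson interval 0.101 to 0.726 TPM), and *Yy1* KD replicate 1 had 4 pairs, or 0.240 TPM (0.0653 to 0.614 TPM). A library listed at 0 allows up to 3 pairs, which would be between 0.135 and 0.281 TPM in these 4 libraries, and the upper ends of their two-sided exact intervals were between 0.166 and 0.346 TPM. Such limits cover counting error only, and a difference in *Atf3* within them was not detectable at this depth.

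Of the enzymes of amino acid synthesis, *Psat1* (ENSMUSG00000024640.9, chromosome 19, 15904678 to 15947337, minus strand) makes phosphoserine on the path to serine. Its level was 274, 281 and 251 TPM in control KD against 299, 329 and 301 TPM in *Yy1* KD libraries, so that all 3 *Yy1* KD values were above all control KD values (exact permutation p = 0.1). The difference was small, with a log2 fold change of 0.21 (95% interval 0.03 to 0.39), and was not called (adjusted p = 0.161). *Asns* (ENSMUSG00000029752.12, chromosome 6, 7675169 to 7693254, minus strand), which makes asparagine, was at 14.1, 19.7 and 16.3 TPM in control KD against 27.5, 15.8 and 27.9 TPM in *Yy1* KD libraries. Replicates 1 and 3 of *Yy1* KD were above the controls and replicate 2 lay among them. The log2 fold change was 0.45 (95% interval -0.11 to 1.02, adjusted p = 0.308), and 0.71 without *Yy1* KD replicate 2 (adjusted p = 0.105).

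*Trib3* (ENSMUSG00000032715.9, chromosome 2, 152337422 to 152344032, minus strand) encodes a pseudokinase that restrains ATF4 in a feedback loop. Its level was 16.5, 9.16 and 8.96 TPM in control KD against 10.8, 6.08 and 9.40 TPM in *Yy1* KD libraries. Control KD replicate 1 was the highest of the 6, and the remaining values overlapped. The log2 fold change was -0.34 (95% interval -1.03 to 0.35, adjusted p = 0.526), and was -0.08 without control KD replicate 1 and -0.13 without *Yy1* KD replicate 2.

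*Ddit4* (ENSMUSG00000020108.4, chromosome 10, 59949669 to 59951834, minus strand), or REDD1, an inhibitor of mTORC1 signalling that other stresses also induce, was at 84.9, 68.4 and 56.1 TPM in control KD against 77.8, 108 and 101 TPM in *Yy1* KD libraries. Replicates 2 and 3 of *Yy1* KD were above all controls, and replicate 1 lay below the highest control. The mean in *Yy1* KD was 137% of the control mean, and the log2 fold change was 0.46 (95% interval 0.02 to 0.89, adjusted p = 0.189). *Sesn2*, another inhibitor of mTORC1 and an ATF4 target, had a log2 fold change of 0.68 (95% interval 0.24 to 1.11, adjusted p = 0.0814), was called with limma-voom (adjusted p = 0.0142), and was chosen for mention after its values were seen. Of the other ATF4 targets, described below, limma-voom called 5 higher, *Sesn2* among them, and 2 lower. Those called lower were *Eif4ebp1* and *Sqstm1*. In the main fit their log2 fold changes were -0.42 (limma adjusted p = 0.0526) and -0.47 (limma adjusted p = 0.102).

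*Chac1* (ENSMUSG00000027313.3, chromosome 2, 119351229 to 119354381, plus strand), which degrades glutathione and is a marker of ATF4 activity, had few read pairs. It was at 0.118, 1.72 and 0.573 TPM in control KD against 1.97, 1.22 and 1.60 TPM in *Yy1* KD libraries, which rested on 1, 29 and 7 pairs and on 25, 11 and 13 pairs. The control KD values were scattered and their highest lay within the *Yy1* KD range. The log2 fold change was 0.62 (95% interval -0.26 to 1.49, adjusted p = 0.368). Because the pseudocount of 1 was near the level itself, the value was 1.38 with a pseudocount of 0.1 (adjusted p = 0.377) and 1.29 with limma-voom (adjusted p = 0.294). It was 0.32 without control KD replicate 1 and 0.96 without control KD replicate 2 (adjusted p = 0.167).

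*Nupr1* (ENSMUSG00000030717.9, chromosome 7, 126623249 to 126630861, minus strand), a small chromatin-associated stress protein, was at 5.0, 3.20 and 6.56 TPM in control KD against 2.47, 4.70 and 2.89 TPM in *Yy1* KD libraries. The lower values were mostly those of *Yy1* KD, but replicate 2 lay above a control. The log2 fold change was -0.44 (95% interval -1.14 to 0.27, adjusted p = 0.429). It was -0.24 without control KD replicate 3, the library with the highest value.

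**Figure D2:**
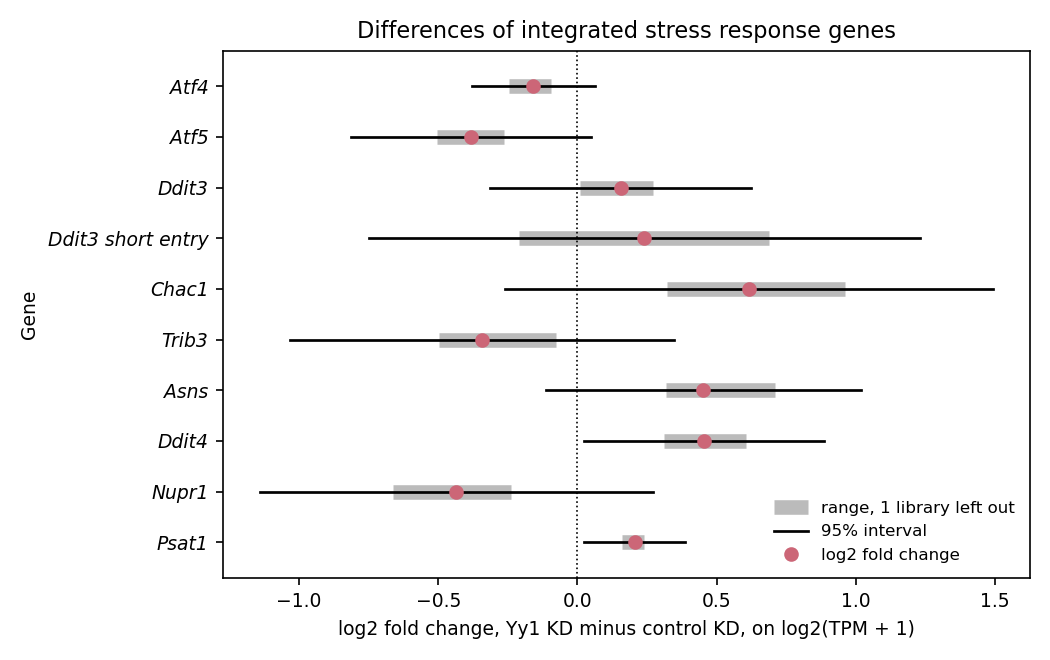
Log2 fold change of each tested entry (points, Yy1 KD minus control KD on log2(TPM + 1), 3 libraries each) with its 95% limma interval (black line) and the range when 1 library is left out (grey bar). The intervals of Ddit4 (0.02 to 0.89) and Psat1 (0.03 to 0.39) lie above 0 before adjustment over 17353 genes, and the others include 0.

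The direction of each of the 9 genes held under all alternatives that gave a value, including each fit without 1 library. Alternatives that changed only the filter or the variance estimate, or that added a replicate block, left the fold changes as they were. Those alternatives could not alter the direction. In the fits without 1 library the fold change came as near 0 as 0.01 for *Ddit3* and -0.08 for *Trib3*. The precision differed among the 9 genes. The standard error was 0.08 for *Psat1* and 0.09 for *Atf4*, 0.18 for *Atf5* and *Ddit4*, and 0.37 for *Chac1*, against a median of 0.21 over all genes tested.

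The start of the pathway was examined in 19 genes for the eIF2 kinases, eIF2 and its regulators. Of the 18 tested, 0 were called higher and 2 lower, against 1.92% and 4.20% of all genes tested, with a median log2 fold change of 0.08. With an unadjusted p under 0.05 there were 7, 5 higher and 2 lower, against 23.8% of all genes in either direction. *Gcn1*, the partner that activates the kinase GCN2 on stalled ribosomes, went from 23.5, 21.5 and 22.6 TPM to 14.1, 14.0 and 15.5 TPM (log2 fold change -0.60, 95% interval -0.84 to -0.36, adjusted p = 0.0260). *Eif2b5*, the catalytic subunit of the exchange factor eIF2B that phosphorylated eIF2 inhibits, went from 262, 265 and 250 TPM to 199, 167 and 180 TPM (log2 fold change -0.51, 95% interval -0.71 to -0.32, adjusted p = 0.0233). Both fell in every *Yy1* KD library below every control. *Gcn1* was called in 0 and *Eif2b5* in 1 of the 6 fits that left out 1 library, with log2 fold changes between -0.64 and -0.57 and between -0.57 and -0.45.

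The eIF2 kinases were not called. *Eif2ak1*, or HRI, the kinase that relays mitochondrial stress through *Dele1*, was at 19.8, 17.9 and 18.1 TPM in control KD against 23.3, 21.8 and 22.9 TPM in *Yy1* KD libraries (log2 fold change 0.27, adjusted p = 0.146). Its exons overlap those of *Aimp2* and *Ankrd61*. Its groups did not overlap, which held for 10 of the 18 genes tested in this list and for 30.1% of all genes tested. *Dele1* had no overlap of the groups either but was lower, at 2.93, 3.41 and 2.87 TPM in control KD against 2.63, 1.92 and 2.49 TPM in *Yy1* KD (log2 fold change -0.29, limma adjusted p = 0.433). *Eif2ak3*, or PERK, the kinase of the endoplasmic reticulum, was at 11.6 ± 3.75 and 12.9 ± 1.82 TPM (SD, n = 3 each), with a log2 fold change of 0.18 and an adjusted p of 0.702 by limma. *Eif2ak4*, or GCN2, was at 5.79 ± 1.27 and 7.37 ± 1.16 TPM (SD, n = 3 each), with a log2 fold change of 0.31 and an adjusted p of 0.417 by limma. *Eif2ak2*, or PKR, the kinase activated by double-stranded RNA, did not exceed 0.213 TPM in any library and was not tested. The subunits that direct the phosphatase to eIF2 were not called, with log2 fold changes of -0.12 for *Ppp1r15a* (95% interval -0.51 to 0.27, adjusted p = 0.702), which ATF4 induces, and -0.01 for *Ppp1r15b* (95% interval -0.33 to 0.31, adjusted p = 0.983).

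Downstream of ATF4, 44 further target genes for amino acid synthesis, transport, tRNA charging and stress signalling were examined. Of the 36 tested, 1 was called higher and 0 lower, 15 had a higher and 21 a lower mean, and the median log2 fold change was -0.03. Over all genes tested 6.11% were called, and 9167 of 17353 had a lower mean. With an unadjusted p under 0.05 there were 10 of the 36, 8 higher and 2 lower. Over all genes tested the share was 23.8%, with 1623 genes higher and 2500 lower. The called gene was *Lars*, which charges tRNA with leucine. It went from 60.9, 58.4 and 66.6 TPM to 83.5, 81.1 and 83.3 TPM (log2 fold change 0.41, 95% interval 0.23 to 0.60, adjusted p = 0.0339), and was called in 0 of the 6 fits that left out 1 library. The secreted stress signals *Fgf21* and *Gdf15* and the transporters *Slc7a11*, *Slc7a1*, *Slc7a3* and *Slc1a4* were among the 8 genes too low to be tested. Of these, *Slc7a1* was lower, at 1.56, 0.966 and 2.23 TPM in control KD against 0.683, 0.237 and 0.875 TPM in *Yy1* KD. *Slc7a11* was higher, at 0.500, 0.452 and 0.443 TPM in control KD against 0.603, 0.509 and 0.826 TPM in *Yy1* KD. For neither gene did the groups overlap, which held for 30.1% of all genes tested.

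The unfolded protein responses were compared as neighbouring pathways. In the list for the endoplasmic reticulum 0 of 24 genes were called, against 6.11% of all genes tested, and 5 had an unadjusted p under 0.05, against 23.8%. A lower mean in *Yy1* KD was found for 18 of the 24, against 9167 of 17353 over all genes tested, with a median log2 fold change of -0.18. In control KD replicate 3, 16 of the 24 genes were at their highest, against 3653 of 17353 over all genes tested. The median was -0.04 without this library, with 14 of 24 genes lower, and -0.35 without control KD replicate 2, with 19 lower. *Hspa5*, the main chaperone of the endoplasmic reticulum, was at 131, 105 and 287 TPM in control KD against 131, 125 and 126 TPM in *Yy1* KD libraries, and *Calr*, another chaperone there, at 347, 267 and 632 TPM and at 347, 349 and 388 TPM. *Hspa5* and *Calr* were chosen after their values were seen.

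In the same library the integrated stress response genes were not raised together. *Atf4*, *Atf5*, *Ddit3*, *Trib3*, *Ddit4* and *Psat1* were at their lowest control KD value in replicate 3, whereas *Nupr1* was at its highest. The median deviation of a gene from its own mean over the 6 libraries was 0.55 on the log2 scale for the endoplasmic reticulum list in this library and -0.19 for the 10 tested entries of integrated stress response genes. In the list for mitochondria 0 of 12 genes were called, against 6.11% of all genes tested, and 5 had an unadjusted p under 0.05, against 23.8%. A lower mean in *Yy1* KD was found for 10 of the 12, against 9167 of 17353 over all genes, with a median log2 fold change of -0.16.

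**Figure D3:**
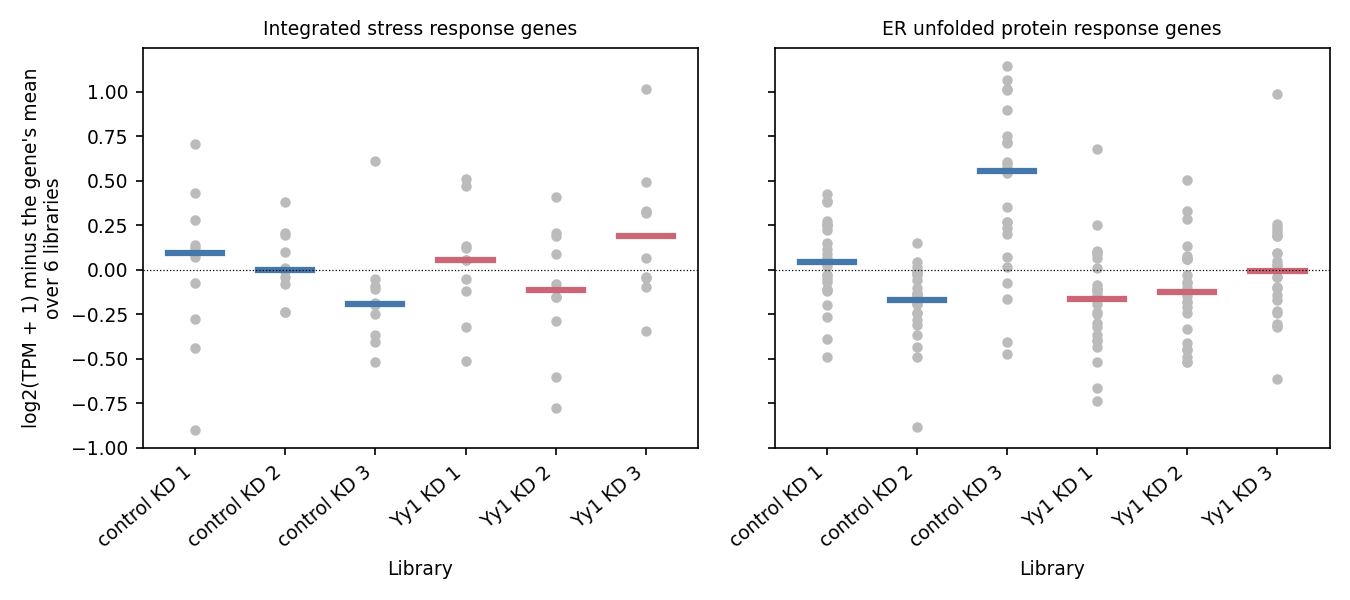
Deviation of log2(TPM + 1) from the gene's mean over the 6 libraries, for the tested integrated stress response entries (left) and the endoplasmic reticulum list (right). Grey points are genes and bars are medians (control KD blue, Yy1 KD red); the endoplasmic reticulum genes stand at 0.55 in control KD 3, where the stress response genes stand at -0.19.

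**Figure D4:**
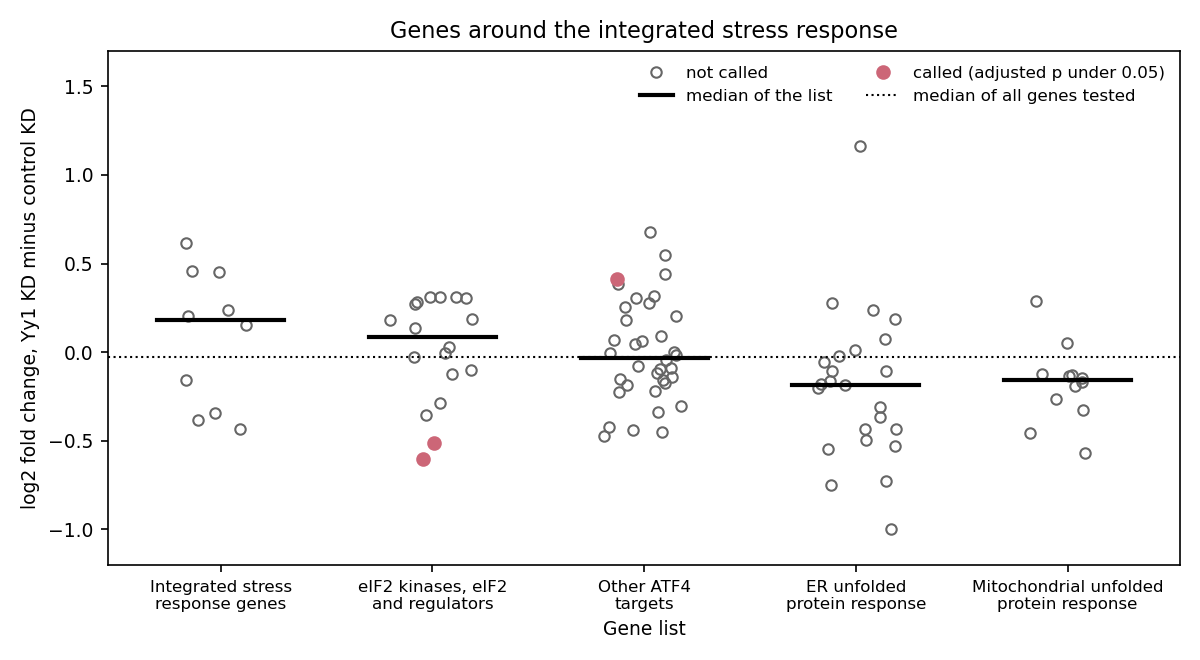
Log2 fold change (Yy1 KD minus control KD, 3 libraries each) of the genes tested in 5 lists. Red points are the 3 called genes, Gcn1 and Eif2b5 below 0 and Lars above it, open points are genes not called, black bars are list medians, and the dotted line is the median of all genes tested (-0.02).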

How the data were processed

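The authors trimmed the reads with Trim Galore (0.6.7), aligned them to mm10 with HISAT2 (2.2.1), removed ribosomal RNA reads with bedtools, divided read pairs among overlapping genes of GENCODE vM25 with featureCounts (2.0.1), ignoring strand, and deposited TPM per gene and library (versions from the submitters' processing notes). TPM is not a count, so the edgeR test that the authors ran on counts was replaced by limma.

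Groups and replicates were taken from the labels, and 0 columns of values were left unused. Genes that reached 1 TPM in 3 or more of the 6 libraries were fitted with limma (3.58.1, R 4.3.3) on log2(TPM + 1) with a variance trend. Two-sided p-values were Benjamini-Hochberg adjusted over all genes tested, and genes were called under 0.05. Fold changes on this scale understate changes of low genes. The fit was checked on simulated libraries. Nothing states that replicates were separate experiments, so p-values measure the spread between these libraries. Read pairs were recovered from TPM and GENCODE vM21 exon lengths, for genes of the same version in both releases. Of values up to 20 pairs in genes without exonic overlap, between 88.97% and 90.9% were whole within 0.02 pairs. Intervals of single counts are exact Poisson intervals and cover counting error only, since amplified pairs are not independent molecules.

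The members and gene lists were chosen with earlier results of these data known. Named genes were *Yy1*, the members, the eIF2 kinases and phosphatase subunits, the called genes of each list and the marker genes with the highest mean, of which the morula marker is given. *Sesn2*, *Eif4ebp1*, *Sqstm1*, *Dele1*, *Hspa5*, *Calr*, the untested ATF4 targets and genes called only in an alternative were named in addition, after their values were seen. Of 5 motifs searched on both strands, TGATGNAA was chosen for display after its matches were seen. Figures were made with Python 3.11.15 and matplotlib 3.10.9.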

Additional observations from a re-analysis of the deposited data

How the results depend on the processing

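In all alternatives 0 integrated stress response genes were called. The 9 genes tested kept their direction, which the alternatives of filter, variance estimate and replicate block could not alter. The short *Ddit3* entry ranged from -0.21, without *Yy1* KD replicate 3, to 0.69, without *Yy1* KD replicate 2, around its value of 0.24. Over all genes tested, 1061 of 17353 were called, and 514 of 17353 without a variance trend. The number tested differed in other alternatives. There 347 of 35852 were called without a filter on low values and 625 of 10844 among genes without exonic overlap. Limma-voom on recovered read pairs called 2089 of 16931 (809 higher and 1280 lower). Quantile normalization called 388 higher and 548 lower in place of 333 and 728. Leaving out 1 library gave between 75 calls, without control KD replicate 3, and 418. Limma-voom and the fits on genes without overlap and on joined *Ddit3* entries were added after the data were seen.

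In the list of eIF2 kinases, eIF2 and its regulators, 2 of 18 genes were called, and between 0 and 1 with a library left out. The count was 1 without a filter, without a trend or among genes without exonic overlap. It was 4 of 17 with a mean TPM of at least 5 and 4 of 18 with limma-voom (*Eif2s1* and *Eif2s3x*, both higher, in addition). Over all genes these settings called 1219 of 10675 and 2089 of 16931. Of the other ATF4 targets 1 of 36 was called, 0 without a filter or a trend, and between 0 and 1 with a library left out. Quantile normalization called 3 of 36, all higher. With a mean TPM of at least 5, 4 of 28 were called, 3 higher and 1 lower. With limma-voom 7 of 35 were called, 5 higher and 2 lower. In the list for the endoplasmic reticulum 1 gene, *Derl3*, was called higher with median-ratio scaling, quantile normalization or weights per library. Limma-voom called 3 of 22 there, *Derl3* higher and *Pdia4* and *Derl2* lower. In the list for mitochondria limma-voom called 1 of 12, *Clpx*, as higher. The cause of these differences was not tested.

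Deviations of same-numbered libraries of the 2 groups were at most weakly correlated across genes (between -0.004 and 0.07). Not every library correlated best with its own number, so the numbers were not taken as pairs. With the replicate block 287 genes were called, 0 of them in the eIF2 list or among the other ATF4 targets. *Chac1*, *Atf3* and the short *Ddit3* entry rest on few read pairs, and for *Chac1* in control KD and the short entry in *Yy1* KD the counting intervals of single libraries did not all overlap. The same held for members with more pairs, among them *Trib3* in control KD. Its intervals there were 14.2 to 19.1 TPM in replicate 1 and 7.94 to 10.5 TPM in replicate 2.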
